A study of Mus musculus with 6 samples.

Results

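Matrix metalloproteinases (Mmp), the related Adamts proteases and their tissue inhibitors (Timp) were followed in whole mouse tongues that carried oral tumours. The genes were taken by symbol from the RNA-seq count table: every Mmp with a number, every Adamts with a number and Timp1 to Timp4. This gave 46 of the 24067 genes in the table, made up of 23 Mmp, 19 Adamts and 4 Timp genes. The tongues came from C57BL/6 mice about 34 weeks old, 3 libraries labelled as HuR knockout (KO) and 3 labelled as HuR wild type (WT), numbered here by replicate. Both groups had received the carcinogen 4-nitroquinoline 1-oxide (4NQO) for 16 weeks and were then kept for 12 weeks while tumours formed, so no tongue without carcinogen was compared. HuR is an RNA-binding protein encoded by Elavl1, and the labels do not name a promoter, Cre driver or cell type for its loss. The comparison asks how these proteases and inhibitors differ between tumour-bearing tongues labelled as lacking and as having HuR.

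Total counts were 34754246 to 51520707 under the KO label, against 29543352 to 51280006 under the WT label. Elavl1, the targeted gene, stood at 65.0, 59.3 and 78.4 CPM, which are reads of a gene per library scaled for depth, in KO libraries 1 to 3, against 61.7, 55.8 and 47.9 CPM in WT libraries 1 to 3, so no loss of its RNA was visible under the KO label. The groups are therefore named by their labels, and every direction is that between the labels. By Xist and Y-linked counts KO replicates 2 and 3 were female and the other 4 libraries male, so sex and label cannot be told apart for those 2 libraries. The labels do not say how the replicates arose, and p-values measure only the spread between these samples. Whole tongue holds epithelium, tumour, muscle and stroma, and in such tissue fewer cells of a type and less RNA per cell cannot be told apart.

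Mmp proteins are zinc-dependent enzymes, mostly secreted as inactive precursors, that cleave collagens, laminins and other matrix proteins, and they are named for their substrates: collagenases, gelatinases, stromelysins and matrilysins. Adamts proteins add thrombospondin repeats to a metalloproteinase domain and cut proteoglycans, procollagens or other matrix targets, while Timp proteins block both families. In oral carcinomas, wounded or tumour keratinocytes and infiltrating macrophages and neutrophils make some of these enzymes on demand, whereas fibroblasts and vessels make others steadily. AP-1, a dimer of Fos and Jun proteins, is the best known activator of the inducible Mmp promoters.

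Most of the inducible Mmp genes lie together in the genome. On chromosome 9, 10 of the 23 Mmp genes lay in a stretch of 427 kb at chr9:7272514-7699585 (GRCm38, GENCODE M21). They were the collagenases Mmp1a, Mmp1b, Mmp8 and Mmp13, the stromelysins Mmp3 and Mmp10, the macrophage elastase Mmp12, the matrilysin Mmp7, the enamel protease Mmp20, and Mmp27. RefSeq promoter entries on GRCm38.p6 matched 32 of the 46 genes. The 14 genes without an entry, among them Mmp9 and Mmp2, were not searched. The AP-1 heptamer TGAGTCA, searched on both strands in the 250 bases before each start, occurred in 7 of the 10 cluster genes (Mmp1a, Mmp1b, Mmp3, Mmp7, Mmp10, Mmp12 and Mmp13) and in 0 of the other 22 genes matched. Among all 27025 genes with an entry 5.16% held it, where a gene with several entries was counted if any of them did. Other motifs were searched in the same windows. The hexamer AGGAAG, named PEA3, occurred in 13 of the 32 genes matched (40.6%), against 32.3% of all genes. The TATA letters TATAAA occurred in 9 of them (28.1%), against 14.3% of all genes. The letters are a description of these windows and not a measured binding site. The 120 bases before the start are shown for Mmp15 and the 5 genes with the heptamer and counts in all 3 labelled KO libraries. Mmp15 was picked for its level, lower under the KO label, and is 1 of the 22 genes without the heptamer. Mmp8 and Mmp25 were higher in every labelled KO library, and their entries also lacked it. Any link between the heptamer and the levels was not tested. Each stretch runs 5′ to 3′ on the gene's own strand with the AP-1 letters in capitals.
Mmp3: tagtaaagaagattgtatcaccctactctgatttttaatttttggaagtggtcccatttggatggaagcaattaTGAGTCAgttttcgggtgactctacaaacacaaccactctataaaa
Mmp10: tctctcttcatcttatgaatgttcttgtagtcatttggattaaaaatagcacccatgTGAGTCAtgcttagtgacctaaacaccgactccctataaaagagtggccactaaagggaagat
Mmp12: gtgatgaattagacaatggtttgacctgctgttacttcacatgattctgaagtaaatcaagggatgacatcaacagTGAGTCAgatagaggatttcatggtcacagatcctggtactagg
Mmp13: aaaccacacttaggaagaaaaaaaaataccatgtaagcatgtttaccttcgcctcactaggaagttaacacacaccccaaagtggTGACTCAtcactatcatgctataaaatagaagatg
Mmp1b: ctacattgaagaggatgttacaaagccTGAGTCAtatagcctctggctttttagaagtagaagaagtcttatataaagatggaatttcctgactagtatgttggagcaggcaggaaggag
Mmp15: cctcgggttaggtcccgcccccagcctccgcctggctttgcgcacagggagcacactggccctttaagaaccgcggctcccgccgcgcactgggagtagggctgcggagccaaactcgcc
The stretches lie at chr9:7445702-7445821 (Mmp3, plus strand), chr9:7502222-7502341 (Mmp10, plus), chr9:7347254-7347373 (Mmp12, plus, the downstream start of its 2 entries), chr9:7272394-7272513 (Mmp13, plus), chr9:7388027-7388146 (Mmp1b, minus) and chr8:95352176-95352295 (Mmp15, plus). Counted from the start, the heptamer began at -46 in Mmp3, -63 in Mmp10, -44 in Mmp12, -35 in Mmp13, where it stands as its reverse complement, and -93 in Mmp1b. The window of Mmp15 on chromosome 8 held no AP-1 heptamer. The upstream entry of Mmp12 (chr9:7344277-7344396, plus), which spans the annotated start of the gene, held PEA3 letters but no AP-1 heptamer. Mmp7 also had a further entry without the heptamer. Both genes were counted above through the entry that held it.

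Of the 46 genes, 38 had enough counts to be tested, and 3 passed an adjusted p of 0.05 by edgeR's quasi-likelihood test (Benjamini-Hochberg adjustment across 15903 genes). Mmp12 rose under the KO label, and Mmp15 and Adamts20 fell. Over all genes tested 4.81% rose and 7.43% fell, so 1 riser and 2 fallers among 38 do not set these genes apart. At an unadjusted p under 0.05, 8 were higher and 9 lower, where 18.2% and 20.3% of all genes were. All 3 labelled KO libraries lay above all 3 labelled WT libraries for 8 of the 38 genes, against 22.0% of all genes, and below them for 9, against 22.1%. Each fold change is given as log2, with the KO label over the WT label, and with its standard error. The median log2 fold change was 0.04 for the 38 genes and 0.02 for all genes tested. All 7 tested genes of the 10 on the tumour and myeloid list were above 0, with a median of 2.02, and 1 of them passed by edgeR. Of these, Mmp8 and Mmp10 reached the level of the filter on low counts in all 3 labelled KO libraries but in only 1 labelled WT library, so the filter fixed their direction in part. Of 15 stromal proteases 6 were above 0 and 9 below, with a median of -0.18, where 8156 of all 15903 genes were above 0. Of the 15, edgeR called 0 (before adjustment, 0 higher and 4 lower at p under 0.05), and DESeq2 called 1 lower.

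**Figure D1:**
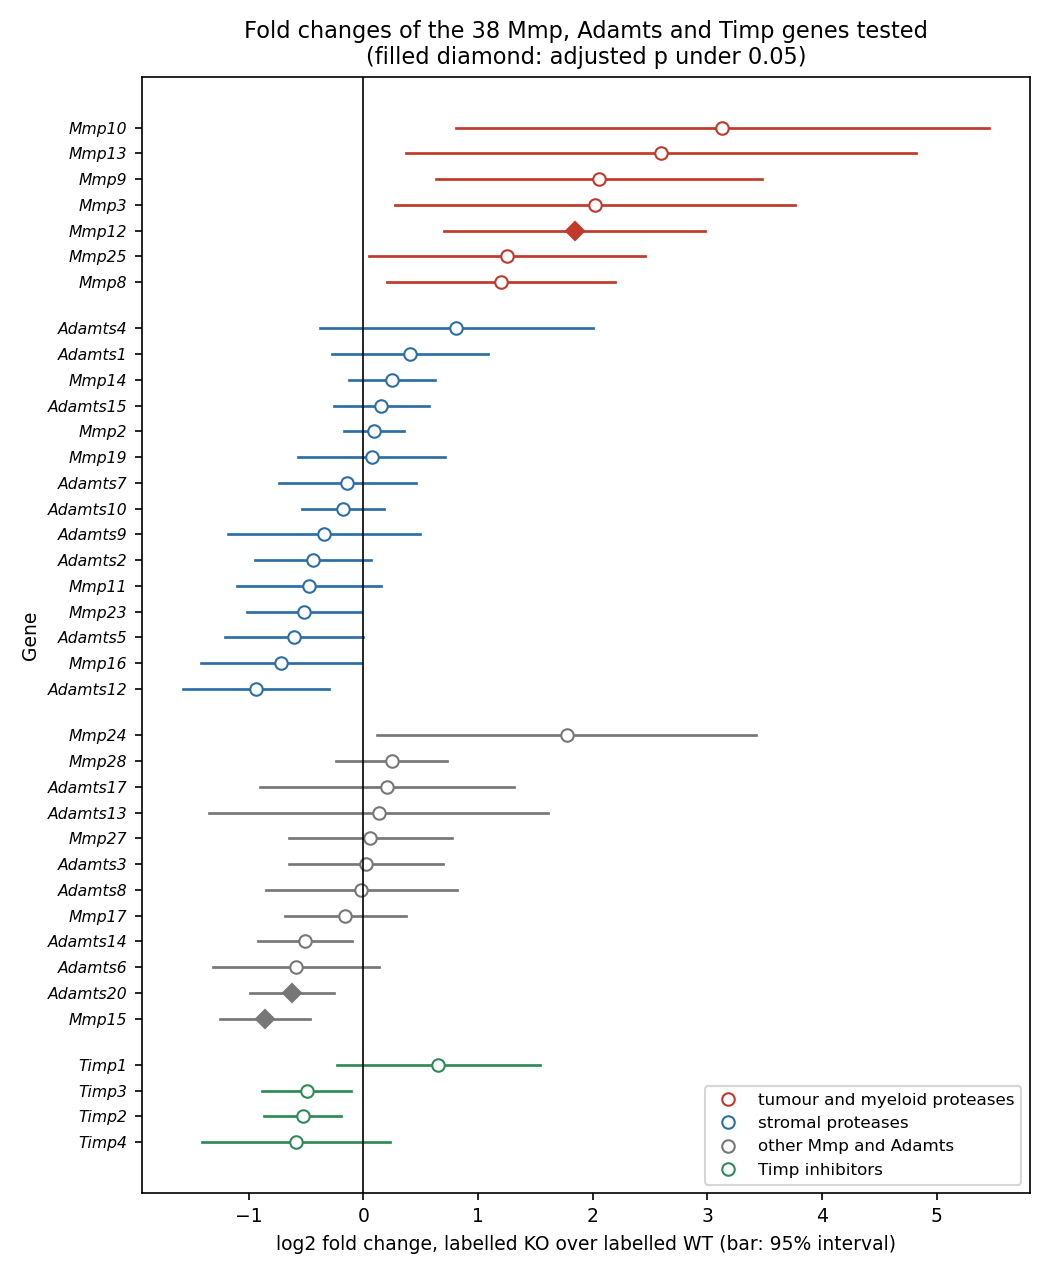
Log2 fold change of labelled KO over labelled WT for the 38 genes tested, with bars for the 95% interval and filled diamonds for an adjusted p under 0.05. The 7 tumour and myeloid proteases lie to the right of 0, from 1.20 for Mmp8 to 3.13 for Mmp10, with wide intervals, and Mmp15 and Adamts20 lie to the left with narrow ones.

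Mmp12, the elastase of macrophages, was the only gene of the families that rose at this threshold by edgeR. DESeq2 also called Mmp9 higher (adjusted p = 0.0329), and limma-voom also called Mmp3 (adjusted p = 0.0393), where over all genes DESeq2 called 12.1% higher and 15.9% lower and limma-voom 6.17% and 8.02%. Mmp12 stood at 6.25, 4.15 and 7.02 CPM in KO libraries 1 to 3, against 3.04, 1.08 and 0.703 CPM in WT libraries 1 to 3. Every labelled KO library was higher than every labelled WT library, and WT replicate 1 was nearest to them. The means were 5.81 ± 1.48 CPM under the KO label, against 1.61 ± 1.25 CPM under the WT label (SD, n = 3 each). The log2 fold change was 1.84 ± 0.49, with a 95% interval of 0.70 to 2.98 and an edgeR adjusted p of 0.0496. The gene lies at chr9:7344381-7369499 (GRCm38), and 157 bases of its exons overlap those of Mmp1b on the opposite strand. Without any single library other than WT replicate 1 the edgeR adjusted p was 0.0798 to 0.163, in fits where few genes of the whole table passed: 0% to 1.81% were called higher and 0% to 2.69% lower.

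Stromelysins Mmp3 and Mmp10 cut proteoglycans, laminin and other Mmp precursors, and Mmp10 is made largely by migrating keratinocytes. Mmp3 stood at 76.4, 53.6 and 43.7 CPM in KO libraries 1 to 3, against 33.7, 5.002 and 3.91 CPM in WT libraries 1 to 3. WT replicate 1 was far nearer to the labelled KO libraries than to the other 2 labelled WT libraries. Its log2 fold change was 2.02 ± 0.75 (95% interval between 0.28 and 3.77, edgeR adjusted p = 0.0954). Mmp10 stood at 9.13, 1.43 and 2.47 CPM under the KO label, against 1.23, 0.188 and 0.0391 CPM under the WT label, from 419, 54 and 131 counts against 43, 9 and 1. KO replicate 1 was highest, and KO replicate 2 lay just above WT replicate 1. The log2 fold change of Mmp10 was 3.13 ± 1.01 (edgeR adjusted p = 0.0694).

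Among the collagenases, Mmp13 is the main enzyme in mouse that cuts fibrillar collagen, and Mmp8 is stored in neutrophil granules. Mmp13 stood at 28.6, 6.64 and 10.2 CPM in KO libraries 1 to 3, against 6.36, 0.542 and 0.586 CPM in WT libraries 1 to 3. KO replicate 2 and WT replicate 1 differed by a ratio of only 1.04. The log2 fold change was 2.60 ± 0.96 (95% interval between 0.38 and 4.82, edgeR adjusted p = 0.0939). Mmp8 was scarce, at 0.510 ± 0.0972 CPM under the KO label, against 0.216 ± 0.116 CPM under the WT label (1.20 ± 0.43, edgeR adjusted p = 0.0870), from 19, 23 and 27 counts against 12, 9 and 3. Mmp1b had 34, 4 and 10 counts under the KO label, against 4, 0 and 0 under the WT label, too few to be tested. Mmp1a, a near copy annotated as a polymorphic pseudogene, had 1 count over the 6 libraries together, and reads may be split between the copies.

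Mmp9, the gelatinase of neutrophils, macrophages and tumour epithelium, stood at 26.9, 5.66 and 7.47 CPM in KO libraries 1 to 3. In WT libraries 1 to 3 it stood at 4.53, 3.25 and 1.76 CPM. KO replicate 1 stood apart from the other 5 libraries. The log2 fold change was 2.06 ± 0.62 (95% interval between 0.64 and 3.48, edgeR adjusted p = 0.0599), and it was 1.04 without KO replicate 1. Mmp25, a membrane-anchored protease of leukocytes, stood at 1.81, 3.91 and 1.87 CPM under the KO label, against 1.75, 0.980 and 0.391 CPM under the WT label (1.25 ± 0.52, edgeR adjusted p = 0.119). The matrilysin Mmp7 had 3, 0 and 0 counts under the KO label, against 1, 0 and 0 under the WT label.

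**Figure D2:**
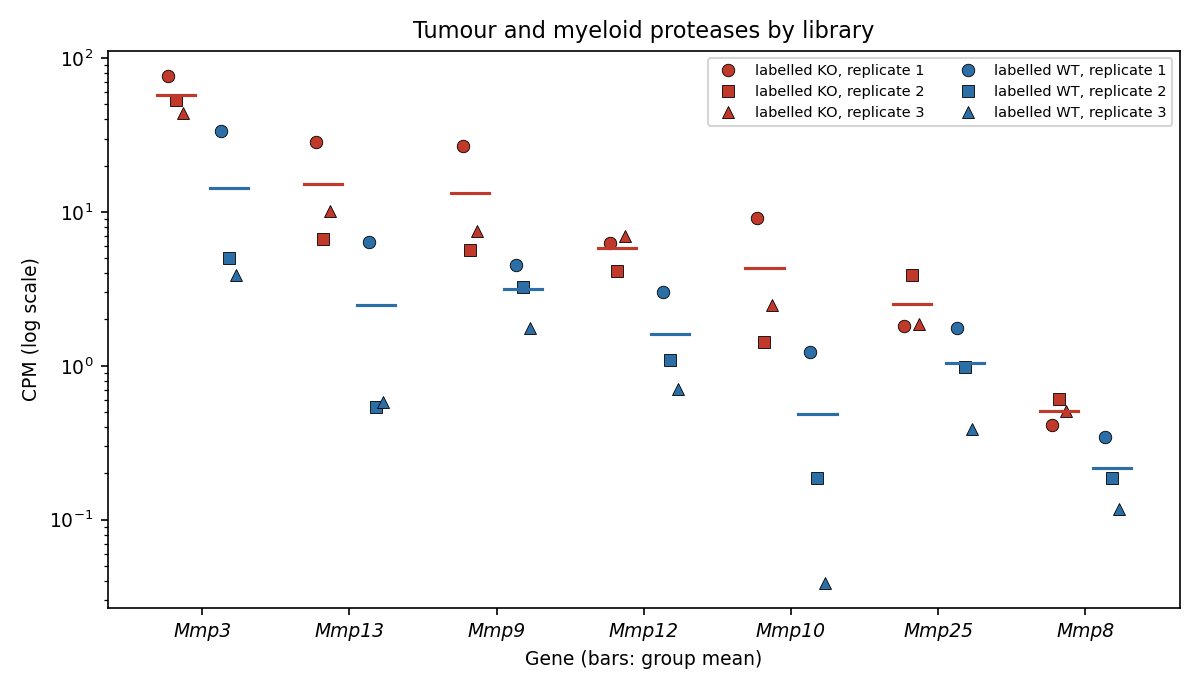
CPM on a log axis for the 7 tested tumour and myeloid proteases in each library, labelled KO in red left of labelled WT in blue, with bars at the group means. WT replicate 1 (blue circle) is the highest labelled WT library for all 7 genes, and for Mmp13 it stands at 6.36 CPM beside 6.64 CPM in KO replicate 2.

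These 7 genes varied widely within both groups. WT replicate 1 was the highest labelled WT library in 7 of 7, against 7 of 15 stromal proteases, and KO replicate 1 was the highest labelled KO library in 4 of 7. The biological coefficient of variation, the spread between libraries that counting does not account for, was 26.5% for Mmp8 to 82.6% for Mmp10, where the common value over all genes was 20.7%. Relative to the mean of WT replicates 2 and 3 alone, the labelled KO mean was 38.3 times as high for Mmp10, 26.9 times for Mmp13, 13 times for Mmp3 and 6.50 times for Mmp12. Against WT replicate 1 the same ratios were 3.52, 2.38, 1.72 and 1.91. Without KO replicate 1 the log2 fold change was 1.98 for Mmp10, 1.75 for Mmp13, 1.77 for Mmp3 and 1.79 for Mmp12. Without WT replicate 1, edgeR called 17.9% of all genes higher and 18.1% lower, and 6 of the 7 genes higher, among them Mmp3 (3.70, adjusted p = 0.00192), Mmp13 (4.77, adjusted p = 0.00889) and Mmp10 (5.03, adjusted p = 0.0189). Mmp9 was the exception (2.40, adjusted p = 0.0754).

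Cell type markers differed between the same libraries. The 14 keratinocyte markers summed to 47870 to 59224 CPM under the KO label, against 20596 to 35016 CPM under the WT label, and WT replicate 1 was the highest labelled WT library. All 14 had fold changes above 0, of which edgeR called 0 (10 at an unadjusted p under 0.05) and DESeq2 called 9. Over all genes 4.81% rose and 7.43% fell by edgeR (18.2% and 20.3% before adjustment), and 12.1% and 15.9% by DESeq2. Of 11 neutrophil markers 10 were in the table and summed to 595, 1887 and 1047 CPM in KO libraries 1 to 3, against 353, 47.5 and 22.3 CPM in WT libraries 1 to 3. S100a8 and S100a9, which keratinocytes also make under stress, held most of that sum. The receptor genes Csf3r (1.28 ± 0.30, edgeR adjusted p = 0.0409) and Cxcr2 (1.72 ± 0.33, edgeR adjusted p = 0.0325) and the granulocyte gene Retnlg (2.82 ± 0.47, edgeR adjusted p = 0.0306) rose, while Elane was at 0 in all 6 libraries and Mpo had at most 0.159 CPM. The 12 macrophage markers summed to 229 to 300 CPM under the KO label, against 273 to 295 CPM under the WT label, and of the 11 tested 0 rose and Mertk fell by edgeR, with 2 higher and 1 lower at p under 0.05 before adjustment and 1 higher and 1 lower by DESeq2. Their part in the protease levels was not tested. With the keratinocyte mean as a covariate, Mmp12 stood at 0.54 (edgeR adjusted p = 0.935), and with the fast muscle mean at 0.89 (edgeR adjusted p = 0.999), and 0 of the 38 genes passed in either edgeR fit, with 1 and 0 higher and 1 and 2 lower when p under 0.05 was taken without adjustment. In both of these fits 0 of all 15903 genes passed. The keratinocyte and fast muscle sums did not overlap between the labels, so covariate and label cannot be told apart in these fits.

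**Figure D3:**
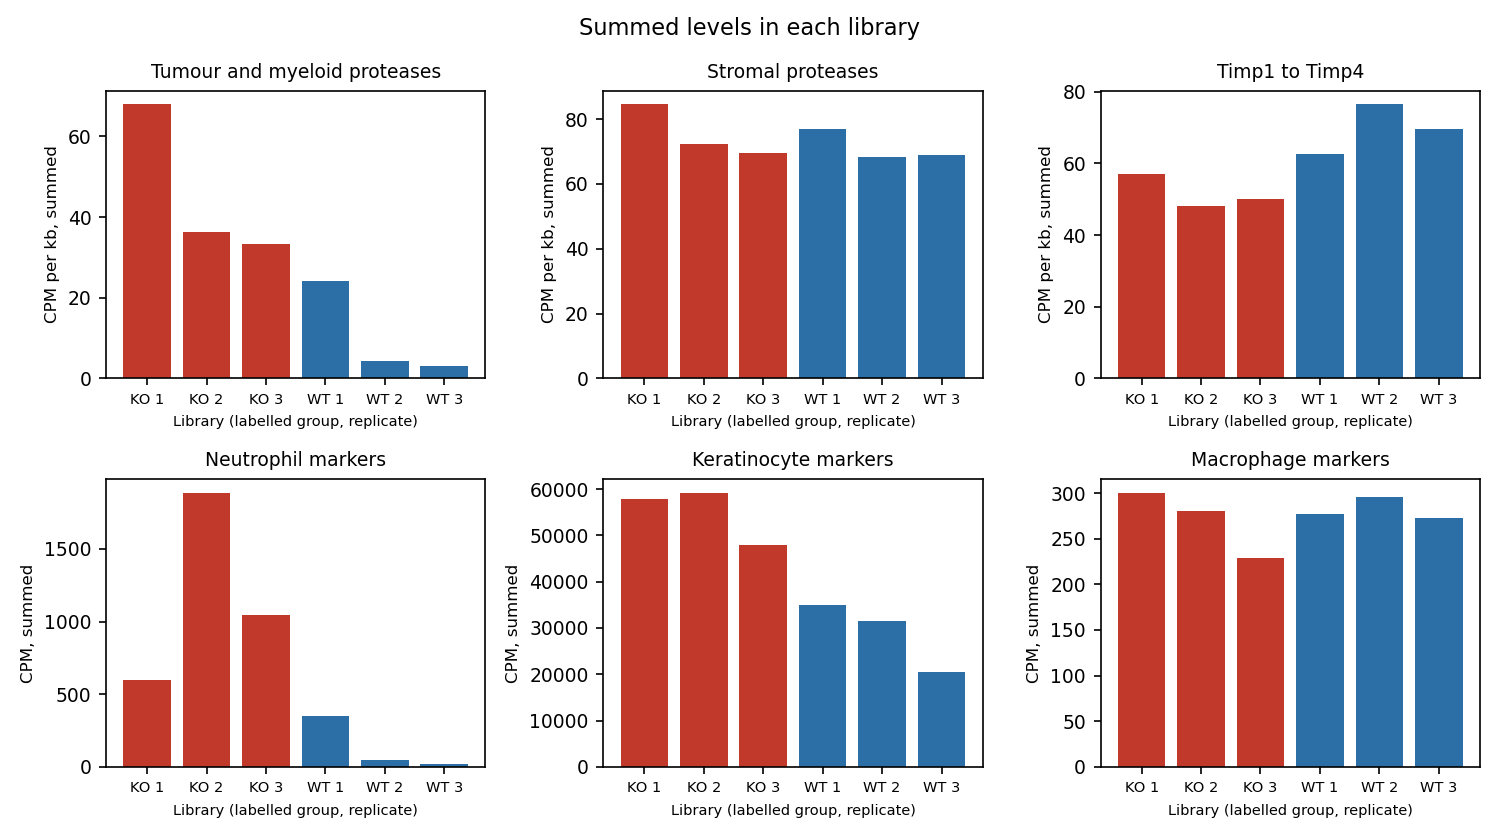
Summed levels in each library, labelled KO in red left of labelled WT in blue: CPM per kb of exon for the protease and inhibitor lists, and CPM for marker lists. The tumour and myeloid proteases, the neutrophil markers and the keratinocyte markers are lower in every labelled WT library than in every labelled KO library, while the stromal proteases stay within 68.4 to 84.6 CPM per kb in all 6.

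The most abundant stromal Mmp genes, Mmp2 and Mmp14, differed little. Mmp2, the gelatinase of fibroblasts, stood at 127, 112 and 111 CPM in KO libraries 1 to 3, against 116, 106 and 105 CPM in WT libraries 1 to 3. The groups overlapped, and the log2 fold change was 0.09 ± 0.11, with a 95% interval of -0.17 to 0.35. Mmp14, the membrane-type enzyme that activates the Mmp2 precursor, stood at 79.7 ± 4.20 CPM under the KO label, against 67.0 ± 14.6 CPM under the WT label (0.25 ± 0.16, edgeR adjusted p = 0.277). Mmp11, a stromelysin of tumour-adjacent fibroblasts, stood at 8.27 ± 1.32 CPM under the KO label, against 11.5 ± 4.54 CPM under the WT label (-0.47 ± 0.27). Mmp19 stood at 6.69 ± 1.81 CPM under the KO label, against 6.36 ± 1.75 CPM under the WT label (0.07 ± 0.28), and neither passed. Mmp23 stood at 2.44 ± 0.0795 CPM under the KO label, against 3.49 ± 0.646 CPM under the WT label (-0.52 ± 0.22, edgeR adjusted p = 0.121). The membrane-type enzyme Mmp16, at 0.702 ± 0.116 CPM under the KO label, against 1.14 ± 0.279 CPM under the WT label, had a fold change of -0.72 ± 0.30 (edgeR adjusted p = 0.122). For Mmp23 and Mmp16 all labelled KO libraries lay below all labelled WT libraries. With Adamts5 and Adamts12 this held for 4 of the 15 stromal proteases, against 22.1% of all genes, and 0 of the 15 lay above.

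Mmp15, a membrane-type metalloproteinase that can activate Mmp2, had the smallest adjusted p of the 38 genes. It stood at 29.4, 32.0 and 34.9 CPM in KO libraries 1 to 3, against 47.6, 54.6 and 72.4 CPM in WT libraries 1 to 3. The groups were well apart, and the labelled KO libraries lay close together. The means were 32.1 ± 2.75 CPM under the KO label, against 58.2 ± 12.8 CPM under the WT label (SD, n = 3 each). The log2 fold change was -0.86 ± 0.17 (95% interval between -1.25 and -0.46, edgeR adjusted p = 0.0333). The gene lies at chr8:95352268-95375080 (GRCm38). Without 1 library its fold change ranged from -0.97 to -0.67, and it stayed called without WT replicate 1 and without WT replicate 3 (edgeR adjusted p = 0.00487 and 0.0380). It was not called without WT replicate 2 or without any of the labelled KO libraries (0.0626 to 0.129), where at most 0.306% of all genes were called in a direction. With the keratinocyte or the fast muscle mean as a covariate it stood at -0.32 and -0.30, in fits where 0 of all 15903 genes passed. Covariate and label cannot be told apart in those fits. The 19 fast muscle markers summed to 46988 to 66190 CPM under the KO label, against 83041 to 152204 CPM under the WT label, and their part in the level of Mmp15 was not tested.

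Other Mmp genes stood outside both lists. Mmp17 (-0.16 ± 0.23) and the keratinocyte enzyme Mmp28, known as epilysin (14.3 ± 1.69 CPM under the KO label, against 12.0 ± 3.22 CPM under the WT label, 0.25 ± 0.21), did not pass. Mmp24, a membrane-type enzyme known from neurons, had 17, 11 and 22 counts under the KO label, against 9, 1 and 1 under the WT label (1.77 ± 0.72, edgeR adjusted p = 0.112). It reached the filter level in all 3 labelled KO libraries but in 1 labelled WT library, and 637 bases of its exons overlap a gene on the opposite strand. Besides Mmp1a, Mmp1b and Mmp7, the genes too scarce to be tested were Mmp20, Mmp21, Adamts16, Adamts18 and Adamts19.

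Of the 16 Adamts genes tested 1 fell and 0 rose by edgeR, with 4 lower and 0 higher before adjustment, where 20.3% and 18.2% of all genes were. DESeq2 called 3 lower and 0 higher, where 15.9% and 12.1% of all genes were, so these counts lie near the shares over all genes. Adamts20 is a proteoglycanase that cuts versican, and its loss gives mice a white belt in the coat. It stood at 6.43, 7.64 and 7.36 CPM in KO libraries 1 to 3, against 10.03, 10.6 and 12.5 CPM in WT libraries 1 to 3. The groups did not overlap, and the spread within each was small. The log2 fold change was -0.63 ± 0.16 (95% interval between -0.99 and -0.26, edgeR adjusted p = 0.0449). The gene lies at chr15:94270163-94465418 (GRCm38). Without 1 library other than WT replicate 1 its edgeR adjusted p was 0.0824 to 0.154, in the same fits with few calls over all genes.

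Other proteoglycanases spread in both directions. Adamts1, which cuts versican and aggrecan, stood at 84.4, 54.5 and 46.9 CPM in KO libraries 1 to 3, against 59.4, 51.1 and 29.5 CPM in WT libraries 1 to 3 (0.41 ± 0.29, edgeR adjusted p = 0.328). Adamts4, another aggrecanase, stood at 3.90 ± 2.46 CPM under the KO label, against 2.22 ± 1.16 CPM under the WT label (0.81 ± 0.52), highest in KO replicate 1. Adamts5, the main aggrecanase of mouse cartilage, stood at 15.2, 12.3 and 7.02 CPM under the KO label, against 18.5, 17.6 and 16.3 CPM under the WT label. Its libraries did not overlap, but the test gave -0.60 ± 0.26 (edgeR adjusted p = 0.128). Adamts8 (-0.02 ± 0.36), Adamts9 (-0.35 ± 0.36) and Adamts15 (0.16 ± 0.18) overlapped between groups.

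The procollagen N-proteinases Adamts2 and Adamts14, which trim fibrillar procollagens, both lay below 0. Adamts2 stood at 16.4 ± 3.62 CPM under the KO label, against 22.3 ± 5.10 CPM under the WT label (-0.44 ± 0.22, edgeR adjusted p = 0.176). Adamts14 stood at 3.86 ± 0.381 CPM under the KO label, against 5.505 ± 0.433 CPM under the WT label (-0.51 ± 0.18, edgeR adjusted p = 0.0819), without overlap. Adamts12, which cuts cartilage oligomeric matrix protein, stood at 2.98, 1.75 and 1.70 CPM in KO libraries 1 to 3, against 3.50, 4.54 and 4.30 CPM in WT libraries 1 to 3. No library labelled KO reached a library labelled WT, and the log2 fold change was -0.94 ± 0.28 (edgeR adjusted p = 0.0579). Adamts6 (-0.59 ± 0.31), Adamts7 (-0.14 ± 0.26), Adamts10 (-0.18 ± 0.16) and Adamts17 (0.20 ± 0.48) did not pass.

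Timp2 and Timp3, the steady inhibitors of stroma and muscle, stood lower under the KO label without passing by edgeR. DESeq2 called both lower (adjusted p = 0.00825 for Timp2 and 0.0405 for Timp3), and limma-voom called Timp2 (adjusted p = 0.0479). Timp2 had 136, 117 and 106 CPM in KO libraries 1 to 3, against 151, 188 and 179 CPM in WT libraries 1 to 3 (-0.53 ± 0.14, 95% interval -0.86 to -0.20, edgeR adjusted p = 0.0510). The groups did not overlap. Timp3, which binds to matrix and also inhibits Adamts enzymes, had 115 ± 11.1 CPM under the KO label, against 161 ± 31.5 CPM under the WT label (-0.49 ± 0.17, edgeR adjusted p = 0.0768), with 1733 exon bases shared with Syn3 on the opposite strand. Timp1, the inducible inhibitor, had 6.45, 3.89 and 5.09 CPM in KO libraries 1 to 3, against 5.39, 2.13 and 2.31 CPM in WT libraries 1 to 3. The groups overlapped through WT replicate 1 (0.65 ± 0.38, edgeR adjusted p = 0.235). Timp4 stood at 6.89 ± 2.05 CPM under the KO label, against 10.3 ± 4.42 CPM under the WT label (-0.59 ± 0.36), also with overlap.

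**Figure D4:**
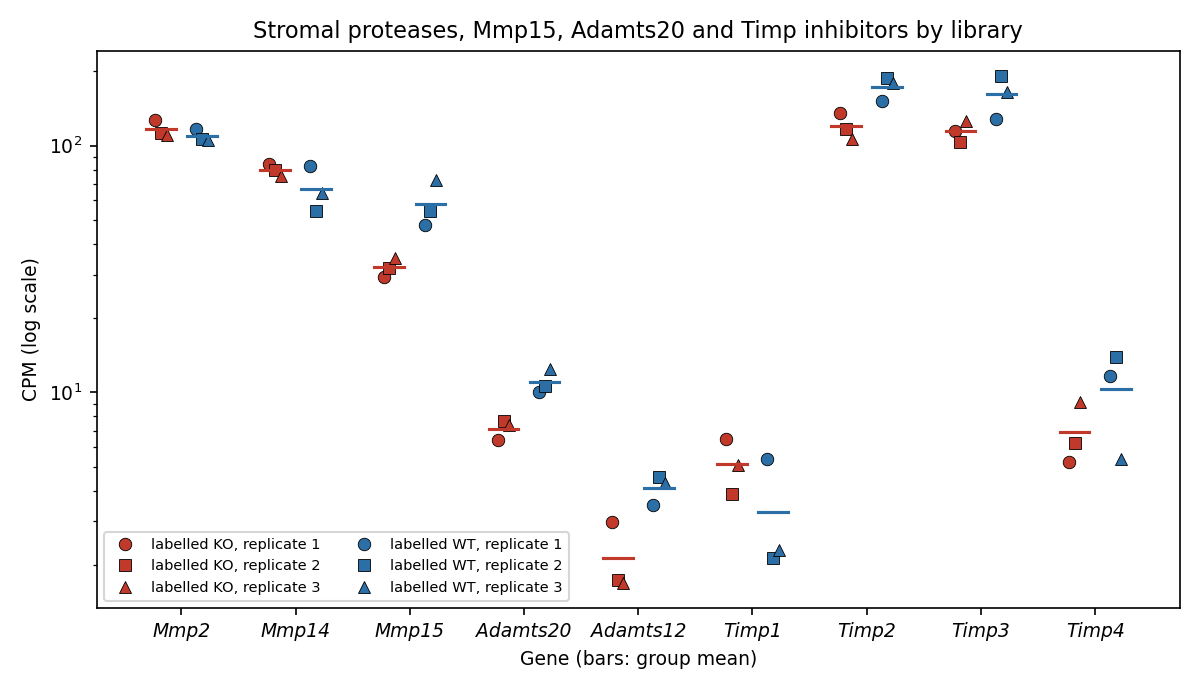
CPM on a log axis for stromal proteases, Mmp15, Adamts20 and the Timp genes in each library, labelled KO in red left of labelled WT in blue, with bars at the group means. Mmp2 overlaps between 105 and 127 CPM, while Mmp15, Adamts20, Adamts12, Timp2 and Timp3 lie lower in every labelled KO library than in every labelled WT library.

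Levels of different genes were set side by side per kb of exon. Over the 6 libraries Timp2 was highest (37.5 CPM per kb), followed by Mmp2 (33.5), Mmp3 (20.0), Timp3 (16.9), Mmp14 (12.3), Adamts1 (10.2) and Mmp15 (8.37). The ratio of Mmp3 to Mmp2 per kb was 1.13, 0.895 and 0.740 in KO libraries 1 to 3, against 0.543, 0.0880 and 0.0695 in WT libraries 1 to 3. The tumour and myeloid list made up 50.3%, 36.7% and 34.6% of the summed Mmp level per kb under the KO label, against 26.0%, 6.73% and 4.43% under the WT label. That list summed to 68.0, 36.3 and 33.3 CPM per kb under the KO label, against 24.1, 4.42 and 3.13 under the WT label. Mmp3 alone averaged 32.2 CPM per kb under the KO label, against 7.89 under the WT label, so these shares rest mostly on Mmp3. The 15 stromal proteases summed to 84.6, 72.4 and 69.5 CPM per kb under the KO label, against 77.0, 68.4 and 68.9 under the WT label, which overlap. The 4 Timp genes summed to 57.1, 48.0 and 50.03 CPM per kb under the KO label, against 62.6, 76.5 and 69.6 under the WT label, with no overlap. Timp1 was 9.11% to 12.7% of that inhibitor sum under the KO label, against 3.13% to 9.70% under the WT label.

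Partner genes of the protease network were read from lists. Over all genes tested edgeR called 4.81% higher and 7.43% lower, and DESeq2 12.1% and 15.9%. At an unadjusted p under 0.05 by edgeR the shares were 18.2% and 20.3%. In the plasminogen activator system, which activates Mmp precursors through plasmin, 1 of 9 rose and 1 fell by edgeR, with a median log2 fold change of 0.71. Before adjustment 5 were higher and 1 lower at p under 0.05, and DESeq2 called 4 higher and 1 lower. Serpinb2, an inhibitor of urokinase made by keratinocytes and macrophages, stood at 63.4, 55.6 and 89.5 CPM in KO libraries 1 to 3, against 28.1, 12.5 and 6.92 CPM in WT libraries 1 to 3 (2.13 ± 0.46, edgeR adjusted p = 0.0364). Serpine2, protease nexin 1, fell to 65.8, 65.8 and 76.9 CPM under the KO label, against 115, 130 and 150 CPM under the WT label (-0.92 ± 0.14, edgeR adjusted p = 0.0295). The urokinase gene Plau stood at 0.85 ± 0.30 (edgeR adjusted p = 0.0845).

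Transcription factors (12 of 14) and inducers (10 of 12) of Mmp genes lay mostly above 0, where 8156 of all 15903 genes did. Over all genes edgeR called 4.81% higher and 7.43% lower (18.2% and 20.3% at an unadjusted p under 0.05). DESeq2 called 12.1% and 15.9% of all genes, and limma-voom 6.17% and 8.02%. Of 14 transcription factors 1 rose and 0 fell by edgeR, with a median log2 fold change of 0.33. At an unadjusted p under 0.05, 5 were higher and 0 lower, as they were by DESeq2 after adjustment. The riser was Etv4, an Ets factor also called Pea3, at 26.0, 19.9 and 27.5 CPM in KO libraries 1 to 3, against 12.5, 8.96 and 9.73 CPM in WT libraries 1 to 3 (1.24 ± 0.19, edgeR adjusted p = 0.0295). The AP-1 subunits Fosl2 (0.76 ± 0.21, edgeR adjusted p = 0.0530), Junb (0.78 ± 0.24, edgeR adjusted p = 0.0620) and Fosl1 (1.73 ± 0.75, edgeR adjusted p = 0.130) did not pass, and Fos and Jun overlapped between groups. Of 12 inducing cytokines and growth factors 3 rose and 1 fell by edgeR, with a median log2 fold change of 1.11. Before adjustment 6 were higher and 1 lower at p under 0.05, DESeq2 called 4 higher and 1 lower, and limma-voom called 6 higher and 1 lower. Il1a, an epithelial alarm cytokine, stood at 10.8, 9.996 and 10.3 CPM under the KO label, against 4.56, 2.04 and 1.02 CPM under the WT label (2.02 ± 0.44, edgeR adjusted p = 0.0370). The EGF receptor ligands Hbegf (1.31 ± 0.31) and Tgfa (1.12 ± 0.24) also rose, and Tgfb3 fell (-0.85 ± 0.18).

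Among matrix substrates fibronectin and a chain of collagen I fell. Of 13 tested, Fn1, fibronectin (-0.93 ± 0.23, edgeR adjusted p = 0.0424), and Col1a2 (-0.70 ± 0.18, edgeR adjusted p = 0.0461) fell and 0 rose by edgeR, with a median log2 fold change of -0.42. At an unadjusted p under 0.05, 7 were lower and 2 higher, and DESeq2 called 6 lower and 1 higher. Over all genes 7.43% fell and 4.81% rose by edgeR (20.3% and 18.2% before adjustment), and 15.9% and 12.1% by DESeq2. Fibroblast markers summed to 1098 to 1467 CPM under the KO label, against 1650 to 1948 CPM under the WT label, and their part in these falls was not tested. By edgeR 0 of 11 other metzincins (Adam, Bmp1 and Tll genes), 0 of 7 Adamts-like genes and 0 of 9 activators, inhibitors and partners passed in either direction. At an unadjusted p under 0.05, 2, 1 and 3 of them were higher and 0, 3 and 1 lower, and DESeq2 called 2, 0 and 1 higher and 0, 2 and 0 lower. Lcn2, lipocalin 2, which binds and stabilises Mmp9, stood at 31.4, 31.4 and 48.3 CPM in KO libraries 1 to 3, against 17.5, 2.13 and 0.742 CPM in WT libraries 1 to 3 (2.44 ± 0.91, edgeR adjusted p = 0.0958).

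In the authors' deposited table of all 6 libraries, Mmp12 and Mmp9 were higher and Adamts12, Adamts14, Adamts20, Mmp15, Timp2 and Timp3 lower under the KO label at an adjusted p under 0.05, among 35 genes with a value, where 12.4% and 16.3% of all genes were. The sign there is labelled WT over labelled KO, so the authors' deposited table gave -1.40 for Mmp12 (adjusted p = 0.00135) and 0.82 for Mmp15 (adjusted p = 3.90e-04). The authors also deposited comparisons of 4 libraries, KO replicates 1 and 2 with WT replicates 1 and 3 or with WT replicates 2 and 3, which share libraries with each other and with the full table. With WT replicates 2 and 3 the authors' deposited table called 9 of 39 genes higher, where 16.3% of all genes were, and 5 lower, where 19.4% were. With WT replicates 1 and 3, of 31 genes the authors' deposited table called Mmp9 higher, where 3.61% of all genes were, and Mmp15 lower, where 5.97% were. For Mmp3 the authors' deposited log2 value, labelled WT over labelled KO, was -3.62 (adjusted p = 2.06e-45) with WT replicates 2 and 3 and -0.58 (adjusted p = 0.423) with WT replicates 1 and 3. The deposited values can be much smaller in size than those fitted here. For Mmp3 with all 6 libraries the deposited value was -0.89, against 2.02 by DESeq2 here, labelled KO over labelled WT. Sizes of the deposited values are therefore not comparable with the fold changes above.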

How the data were processed

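Whole tongues with tumours gave 6 RNA-seq libraries (Illumina TruSeq, per the labels' protocols). The authors deposited raw read counts per gene in 3 tables, and per the file headers also a log2 fold change and an adjusted p-value, labelled WT over labelled KO. The submitters' processing notes name HTSeq, DESeq2, hg19 and mm10; their roles, the aligner, the annotation and the strandedness of counting are not stated in the sources used here, so overlapping genes on opposite strands cannot be told apart. R 4.3.3 with edgeR 4.0.16 was used: filterByExpr (at least 10 counts in the smaller group, 15 in all), TMM scaling, and a robust quasi-likelihood test with group as its only term, adjusted over 15903 genes at 0.05. Intervals are at 95%, and standard errors, the fold change over the square root of F, are approximate. At 1 CPM a library holds 25.6 to 53.0 counts. In simulated data for this comparison with 15811 genes tested, 162 of 200 changed genes were recovered, with 12 false among 174 calls. The changed genes had a mean of at least 1 CPM and larger changes than most genes followed here. Recovery of scarcer genes and smaller changes was not measured. Exon lengths and positions are from GENCODE M21, where 46 of 46 genes matched, and promoters from RefSeq (GRCm38.p6). DESeq2 1.42.0, limma 3.58.1 and the other alternatives are in the closing section.

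The genes and lists were chosen with earlier results of these data known. The tumour and myeloid list holds Mmp1a, Mmp1b, Mmp3, Mmp7, Mmp8, Mmp9, Mmp10, Mmp12, Mmp13 and Mmp25, and the stromal list 6 Mmp and 9 Adamts genes. The list names were assigned, and the cell source of each gene in these tongues was not measured. Named with values were genes with an adjusted p under 0.05, the tumour and myeloid list, the Timp genes and others with a mean of at least 1 CPM, and, chosen after their values were seen, Mmp16 and Mmp24, and in the closing section Mmp27, Adamts3, Adamts13 and Adamts19. Of the pathway lists, genes past the threshold were named, at most 4 a list, and Plau, Fos, Jun, Fosl1, Fosl2, Junb, Lcn2 and the single marker genes were added after their values were seen.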

Additional observations from a re-analysis of the deposited data

How the results depend on the processing

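Which genes passed depended on the libraries and the covariates. The count of genes higher in the libraries labelled KO was 1, and 0 to 9 when each library was left out in turn; the count lower was 2, and 0 to 8. The largest counts came without WT replicate 1 (9 and 8 of 40, where 17.9% and 18.1% of all genes were called), and 0 higher were left without any other single library (edgeR; before adjustment, p under 0.05 for 1 to 5 higher and 4 to 8 lower). DESeq2 called 2 higher and 6 lower (12.1% and 15.9% of all genes), limma-voom 2 and 4 (6.17% and 8.02%), and edgeR with a replicate block 4 and 3 (10.7% and 13.3%). Deviations from the group mean correlated at 0.12, -0.16 and 0.19 between same-numbered libraries, and at -0.22 to 0.17 between differently numbered ones. With 3 libraries a group these values cannot settle whether the numbers pair the samples. With the fast muscle mean, the keratinocyte mean or sex (added after seeing the data) as a covariate, 0 were higher and 0 lower, as were 0 of all 15903 genes. Taking p under 0.05 before adjustment, edgeR then gave 0 and 2, 1 and 1, and 7 and 2. The tumour and myeloid median of 2.02 was 0.059 with the muscle mean and 0.13 with the keratinocyte mean. Both means differed between the labels and cannot be told apart from them. In the sex fit KO replicates 2 and 3 were the only female libraries. The label effect there rested on KO replicate 1 alone against the 3 labelled WT libraries, so that fit cannot separate sex from label. The stromal median of -0.18 was -0.076 with sex, and -0.28 to -0.081 with a library left out.

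The fast muscle and keratinocyte marker sums did not overlap between the labels, so covariate and label cannot be told apart in those fits. The smallest edgeR adjusted p of the 38 genes was 0.999 with the muscle mean and 0.857 with the keratinocyte mean. These fold changes, none past the threshold in the edgeR fit with group alone, changed sign. With the fast muscle mean they were -0.66 for Adamts1, 0.17 for Adamts10, -0.37 for Adamts15, -1.49 for Adamts17, -0.57 for Adamts4, 0.14 for Adamts7, 0.93 for Adamts8, 0.59 for Adamts9, 0.13 for Mmp11, -0.057 for Mmp13, -0.19 for Mmp14, -0.33 for Mmp19, -0.12 for Mmp2, -0.060 for Mmp25, -0.069 for Mmp28, -0.21 for Mmp3 and -0.37 for Timp1. With the keratinocyte mean they were -0.44 for Adamts1, 0.11 for Adamts10, -0.29 for Adamts15, -0.72 for Adamts17, 0.057 for Adamts2, -0.13 for Adamts4, 0.47 for Adamts7, 1.08 for Adamts8, 0.68 for Adamts9, -0.53 for Mmp10, 0.35 for Mmp11, -0.50 for Mmp19, -0.023 for Mmp2, -0.13 for Mmp24, -0.36 for Mmp25, -0.28 for Mmp28 and -0.15 for Timp1. Adamts8 was 0.11 by limma-voom and 0.025 with the replicate block, and Adamts7 was 0.034 with sex. With a library left out Adamts17 ranged from -0.18 to 0.59, Mmp19 from -0.12 to 0.28, Adamts8 from -0.22 to 0.44 and Adamts7 from -0.28 to 0.088. The cause was not tested. Without a filter on low counts, with DESeq2 size factors, or with library sizes computed without fast muscle genes, 1 was higher and 2 lower, as before, and the 35 genes of the families followed through these settings kept their direction and side of the threshold. Depth limits Mmp1a, Mmp1b, Mmp7, Mmp20, Mmp21, Adamts16, Adamts18 and Adamts19, which had at most 34 counts in a library.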

Other observations

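The 3 remaining genes tested were scarce: Adamts3, Adamts13 and Mmp27, each below 1 CPM on average, had fold changes of 0.02 ± 0.29, 0.13 ± 0.64 and 0.06 ± 0.31 and overlapped between groups. Among the 6 tested genes of the chromosome 9 cluster, Mmp27, whose RefSeq promoter held no AP-1 heptamer, averaged 0.559 ± 0.0894 CPM under the KO label, against 0.542 ± 0.0906 CPM under the WT label (SD, n = 3 each), while the other 5 had log2 fold changes of 1.20 to 3.13. Mmp8, which lies next to Mmp27 and also held no AP-1 heptamer, was among those 5. The ends of that range, Mmp8 and Mmp10, reached the filter level in all 3 labelled KO libraries but in only 1 labelled WT library. The filter thus fixed their direction in part. Mmp9, on chromosome 2, and Mmp25, on chromosome 17, lie outside the cluster and had fold changes of 2.06 ± 0.62 and 1.25 ± 0.52. Mmp9 had no promoter entry to search. The part of the heptamer or of the position in these fold changes was not tested. Adamts19, not tested at these counts, had 11, 4 and 4 counts under the KO label, against 7, 31 and 9 under the WT label.

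Mast cell genes, some of which activate Mmp precursors, were mixed: Mcpt1 and Mcpt2 rose (5.67 ± 0.59 and 4.25 ± 0.75, edgeR adjusted p = 0.0295 and 0.0320), and the tryptase and chymase genes Tpsb2 (0.16 ± 0.14) and Cma1 (-0.14 ± 0.21) overlapped between groups. They were 4 of 9 mast cell markers, of which edgeR called 2 higher and 0 lower, where 4.81% and 7.43% of all genes were. Fold changes lay above 0 for 6 of the 9 and below 0 for 3, with a median of 0.16. Endothelial markers summed to 391.6 to 486 CPM under the KO label, against 548 to 698 CPM under the WT label. Of these 8 markers 3 fell by edgeR, where 7.43% of all genes did. Before adjustment 7 were lower at p under 0.05 (20.3% of all genes), and DESeq2 called 6 lower (15.9% of all genes). Their part in the protease levels was not tested.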
